A study of Mus musculus with 2 samples.

Results

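Satellite cells and myoblasts of denervated hind limb muscle were picked from the GFP+ library as barcodes with at least 2000 unique molecular identifiers (UMIs, each 1 captured RNA molecule), under 10% mitochondrial UMIs, at least 3 UMIs over at least 2 of the genes Pax7, Myf5, Myod1, Cdh15, Megf10 and Chrdl2, and at most 5 UMIs of the myeloid genes Tyrobp and Fcer1g. This gave 314 of the 18579 barcodes that passed the depth and mitochondrial filter, or 1.69% (95% binomial interval 1.51 to 1.89%), and 0.863% of all 36400 barcodes. The genotype was S100GFPtg, called WT in the sample titles, in which green fluorescent protein (GFP) is driven by the S100B promoter and labels Schwann cells. The series text gives 2-month-old males for the genotype. The sciatic nerve had been crushed 7 days earlier (7 dpi), the tibialis anterior and gastrocnemius were digested, and live propidium iodide-negative cells were sorted into a GFP+ and a GFP- fraction. The series title speaks of a spinal crush and the sample labels of a sciatic nerve injury. The methods describe pooled males and the series text a single crushed animal, so how many animals stand behind the library is not certain. Uninjured muscle and the GFP- counts were not analysed here. There was therefore 1 library, no replicate and no test, and every interval below covers counting error only.

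Satellite cells are the stem cells of skeletal muscle and lie between the fiber and its basement membrane. In resting muscle they are quiescent and held there by Notch signals and niche contacts, and they are marked by the transcription factor Pax7. When activated they take up Myod1 and divide as myoblasts, and cells that leave the cycle switch on Myog and fuse into fibers. The transcription factors Myf5, Myod1 and Myog bind the E-box, a short DNA motif with the letters CANNTG.

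The stretches of 250 bases upstream of 5 genes on which the results turn are shown because they cover the range from stem cell to differentiating cell. They come from RefSeq on GRCm38.p6, read 5′ to 3′ on the strand of the gene, with E-boxes in capitals. The window of Pax7 (chr4:139832969-139833218, minus strand) held no E-box. That of Cdh15, the M-cadherin of satellite cells (chr8:122848124-122848373, plus strand), held 3. That of Fgfr4, a fibroblast growth factor receptor of muscle progenitors (chr13:55152568-55152817, plus strand), held 2. That of Chrna1, a subunit of the muscle acetylcholine receptor (chr2:73580339-73580588, minus strand), held 3, of which 2 read CAGCTG. That of Myog (chr1:134289754-134290003, plus strand) held 2.
Pax7: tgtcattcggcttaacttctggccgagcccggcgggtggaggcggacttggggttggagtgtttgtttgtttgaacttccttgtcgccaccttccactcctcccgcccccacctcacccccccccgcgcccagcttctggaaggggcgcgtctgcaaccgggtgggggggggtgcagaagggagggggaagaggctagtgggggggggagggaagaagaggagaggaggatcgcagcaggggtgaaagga
Cdh15: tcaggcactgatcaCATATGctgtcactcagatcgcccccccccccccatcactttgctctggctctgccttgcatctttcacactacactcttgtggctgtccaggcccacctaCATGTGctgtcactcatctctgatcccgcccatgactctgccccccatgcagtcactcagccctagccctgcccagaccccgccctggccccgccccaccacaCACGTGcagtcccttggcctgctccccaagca
Fgfr4: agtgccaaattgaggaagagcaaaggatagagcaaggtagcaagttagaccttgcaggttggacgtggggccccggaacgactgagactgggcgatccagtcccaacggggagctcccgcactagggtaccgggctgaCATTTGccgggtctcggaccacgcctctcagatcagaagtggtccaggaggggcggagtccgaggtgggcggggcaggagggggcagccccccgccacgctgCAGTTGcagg
Chrna1: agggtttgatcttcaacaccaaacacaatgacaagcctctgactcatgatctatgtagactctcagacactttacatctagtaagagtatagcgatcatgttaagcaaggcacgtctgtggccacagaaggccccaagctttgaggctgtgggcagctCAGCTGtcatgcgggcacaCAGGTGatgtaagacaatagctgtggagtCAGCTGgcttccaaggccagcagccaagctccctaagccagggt
Myog: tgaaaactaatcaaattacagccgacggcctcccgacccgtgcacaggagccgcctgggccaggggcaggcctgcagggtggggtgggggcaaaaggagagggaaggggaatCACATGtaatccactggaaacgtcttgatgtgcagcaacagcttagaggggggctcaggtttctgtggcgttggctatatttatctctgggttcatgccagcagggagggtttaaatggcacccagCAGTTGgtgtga

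Over all 32851 windows of this length, 66.2% held CANNTG on either strand (its reverse complement has the same form) and 13% held CAGCTG, which is 1 case of the first motif. The narrower motif stood in 8 of 23 windows (34.8%) of a list of differentiation genes, in 8 of 17 (47.1%) of adult fiber genes and in 3 of 28 (10.7%) of satellite cell identity genes. It also stood in 3 of 7 windows (42.9%) of mesenchymal and in 3 of 10 (30.0%) of myeloid genes. A match is a description of the letters and not of binding.

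The members were deep for this library. They held 2007 to 81075 UMIs with a median of 8532.5, compared with a median of 4281 in the 18265 other barcodes past the filter, and 994 to 7765 genes with a median of 2498. At least 5000 UMIs were found in 258 members (82.2%) and in 46.4% of the others. Levels are given as CPM, the UMIs of a gene summed over a class and scaled to the total UMIs of that class, with exact Poisson 95% intervals. Shares of cells with a UMI are given as found and again with every cell randomly cut down to 2000 UMIs (thinning). For comparison, other barcodes were gated by marker genes as myeloid (10685), fibroblast (3657), tenocyte (1127), smooth muscle (273), endothelial (155) and Schwann (150), with median depths of 7595, 3450, 3656, 2981, 4897 and 6897.5 UMIs. The GFP- library shared 372 cell barcodes with the GFP+ library, of which 2 were members.

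The 6 genes that chose the cells are described without any comparison that could count as a result. Pax7 had 733 UMIs, which was 248 CPM (230 to 267), and was present in 78.7% of members, with at most 11 UMIs in a cell. Myf5, an early myogenic transcription factor, had 272 CPM (253 to 291) in 77.1%. Myod1, the factor of activated myoblasts, had 141 CPM (128 to 155) but was found in 35.7% only, with up to 19 UMIs in a cell. Thus most members carried Pax7 and Myf5, and the Myod1 UMIs lay in fewer cells. Cdh15 reached 148 CPM (134 to 162) in 68.5% of members. Megf10, a membrane protein of satellite cells, reached 118 CPM (106 to 131) in 58.9%. Chrdl2, a secreted BMP-binding protein, reached 161 CPM (147 to 176) in 48.4%. After thinning the shares were 38.5% for Pax7, 43.0% for Myf5, 19.4% for Myod1, 26.4% for Cdh15, 19.1% for Megf10 and 24.2% for Chrdl2, and those of the other barcodes lay between 0.279% and 0.728%. Pax7 had 0 UMIs in the gated smooth muscle, endothelial and Schwann cells. Megf10 had the highest background, with 23.8 CPM in tenocytes and 13.1 CPM in Schwann cells.

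**Figure D1:**
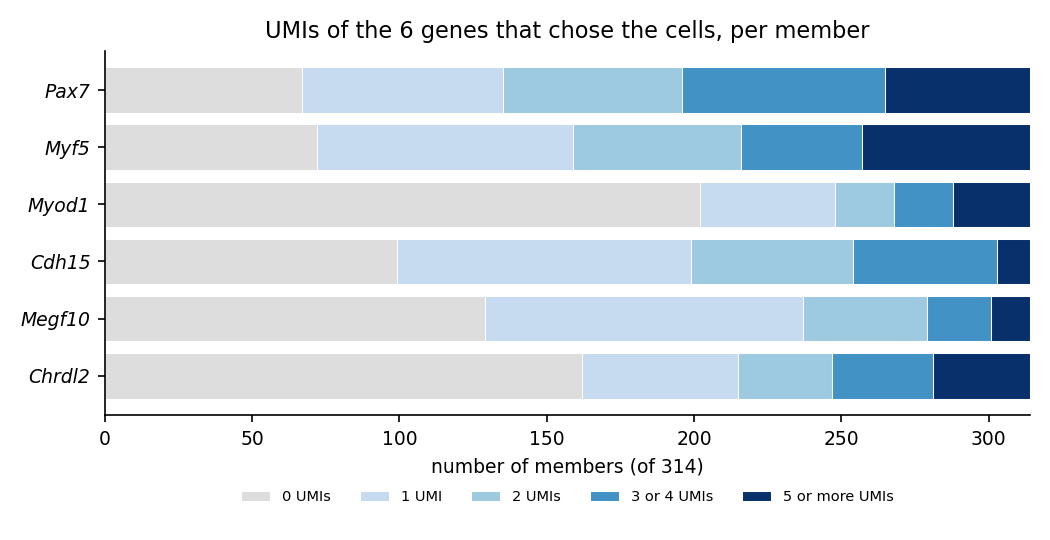
Number of members (x axis, of 314) by how many UMIs of each of the 6 genes that chose them they held (colors, from 0 to 5 or more UMIs). Pax7 and Myf5 were present in 78.7% and 77.1% of members and Myod1 in 35.7%.

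The threshold fell within a graded range. Members held 3 to 37 UMIs of the 6 genes, with a median of 9. UMIs of 2 of the genes were found in 46 members, of 3 in 98, of 4 in 95, of 5 in 63 and of all 6 in 12. Exactly 3 UMIs were held by 40 members with a median depth of 3847.5, and just outside the threshold lay 49 barcodes with 2 UMIs over 2 genes and a median depth of 3189. A list of 26 identity genes that the rule did not use summed to 5668 CPM in the 40 and to 4969 CPM in the 49, so the cells just outside were close to them in this sum. Mesenchymal markers summed to 3754 and 9539 CPM and myeloid markers to 3866 and 5094 CPM in the same groups. In the 244 members with at least 5 UMIs of the 6 genes these sums were 6686 CPM of identity, 2224 CPM of mesenchymal and 298 CPM of myeloid markers. Another 36 barcodes had at least 3 UMIs in 1 gene only, in 23 cases Megf10. The limit on Tyrobp and Fcer1g removed 29 of 343 barcodes, which held 6 to 71 UMIs of these genes. Among the members 209 had 0 UMIs of both, 65 had 1 and 40 had 2 to 5.

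Markers the rule did not use went along with the label. Of the 26 identity genes, all 26 had enough UMIs (at least 20 over both groups), 24 were at least 2-fold higher in members than in the other barcodes and 2 were at least 2-fold lower. Over all 19086 genes with enough UMIs, 14.0% were higher and 34.0% lower by this rule, and the median log2 ratio was 3.75 for the list and -0.0055 for all genes. In simulated data 7.57% of unchanged genes were called, but only 0.0209% of those with at least 20 UMIs expected in members. Part of the 14.0% and 34.0% can therefore rest on genes with few UMIs. The rule chose these cells on the same counts, so the contrast is a description and no test. The background shares were 10.7% and 29.5% against fibroblasts, 10.8% and 23.7% against smooth muscle cells and 9.36% and 27.1% against Schwann cells. The list summed to 6524 CPM in members, 1795 CPM in smooth muscle, 1502 CPM in Schwann, 1024 CPM in tenocyte and 574 CPM in fibroblast cells.

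Among surface receptors, Calcr, the calcitonin receptor of resting satellite cells, was at 103 CPM (92.2 to 116) in members and 0.890 CPM in the others. Fgfr4 was at 136 CPM (123 to 150) and 1.23 CPM, and had 0 UMIs in smooth muscle, endothelial and Schwann cells. Neither exceeded 2.61 CPM in any of the 6 gated classes. Calcr was found in 42.0% of members and Fgfr4 in 62.1%. After thinning, these shares were 18.5% and 21.7%, compared with 0.268% and 0.378% of the other barcodes. Asb5, a gene of a ubiquitin ligase adaptor family, reached 410 CPM (387 to 433) and 6.10 CPM. Pax3, the paralog of Pax7, was high in ratio, with 16.9 CPM (12.6 to 22.3) against 0.100 CPM, but only 7.01% of members held a UMI. 

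The most abundant identity genes were less particular. Sdc4, the heparan sulfate proteoglycan syndecan-4, was at 1262 CPM (1222 to 1303) in 96.8% of members and at 338 CPM in the others. Dmd, which encodes dystrophin, was at 1002 CPM (966 to 1038) in members, 33.4 CPM in all others and 799 CPM in smooth muscle cells. The dystrophin partner Dag1 was at 683 CPM (653 to 713) in members and 441 CPM in Schwann cells. Des, the muscle intermediate filament desmin, was at 539 CPM (513 to 566) in members and 176 CPM in smooth muscle cells. High Dmd, Dag1 and Des therefore did not set members apart from these classes the way Calcr and Fgfr4 did. The 2 lower genes were Cxcr4, the receptor of the chemokine Cxcl12, at 53.1 CPM against 117 CPM, and Sdc3, syndecan-3, at 10.8 CPM (7.40 to 15.3) against 82.4 CPM.

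**Figure D2:**
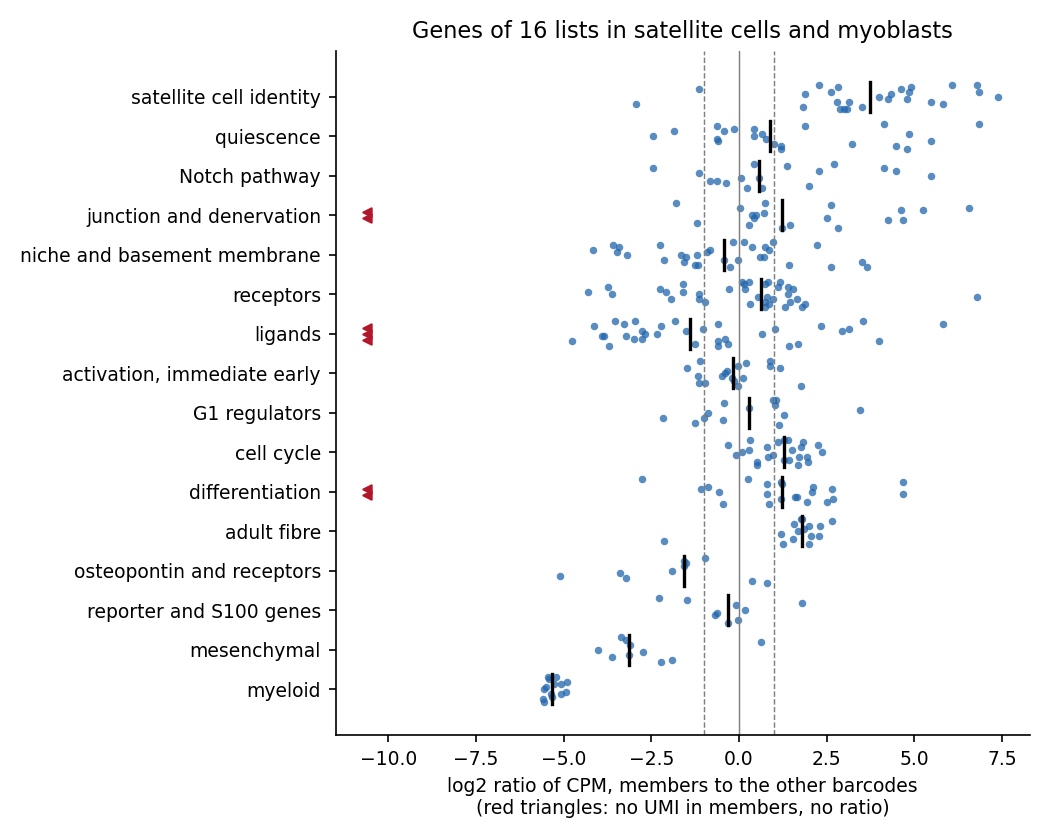
Log2 ratio of CPM in members to the other barcodes (x axis) for each gene (point) of 16 lists (rows), with the list median of genes that have a ratio as a black bar, 2-fold limits dashed and genes with no UMI in members as red triangles. Identity genes lay to the right, with a median of 3.75, and myeloid genes, which the rule limits, to the left.

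Genes linked to quiescence were mixed. Of 22 genes, 10 were higher and 2 lower (14.0% and 34.0% over all genes), with a median log2 ratio of 0.89, and their summed level was 5011 CPM in members and 2739 CPM in the others. The sum was 2108 CPM in myeloid cells but 4734 CPM in fibroblasts and 3993 CPM in tenocytes, so it hardly set members apart from fibroblasts. Calcr aside, the highest ratios belonged to Heyl, a Notch target (135 CPM, 122 to 149, against 3.01 CPM), Tenm4, a teneurin (287 CPM, 268 to 307, against 9.95 CPM) and Chodl, the membrane lectin chondrolectin (514 CPM, 489 to 541, against 18.5 CPM). Chodl was found in 87.3% of members, but it was also at 217 CPM in tenocytes. Nfia, a nuclear factor, was at 724 CPM in members and at 830 CPM in fibroblasts. The lower genes were the homeobox gene Meox2, at 6.76 CPM against 24.5 CPM, and Rbpj.

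Rbpj encodes the nuclear partner of Notch and was at 150 CPM (136 to 164) in members against 820 CPM in the others and 1036 CPM in myeloid cells. In the list of 17 Notch pathway genes, 7 were higher and 2 lower, beside the same 14.0% and 34.0%. The receptor gene Notch3 was at 236 CPM (219 to 254) in 75.2% of members, against 10.5 CPM in the others, but reached 288 CPM in smooth muscle cells. The target Hey1 was at 17.6 CPM against 1.00 CPM. Hes1, another target, was at 96.4 CPM in members, 137 CPM in fibroblasts and 312 CPM in smooth muscle cells. The ligand gene Dll1 had 7 UMIs over all members.

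Of 36 receptor genes for growth factors and cytokines, 11 were higher and 10 lower, or 30.6% and 27.8%, beside the 14.0% and 34.0% of all genes. Fgfr1 was at 471 CPM (447 to 497) in 89.8% of members against 150 CPM. Osmr, the oncostatin M receptor, was at 195 CPM against 53.0 CPM, with 180 CPM in fibroblasts. Met, the receptor of hepatocyte growth factor, was at 61.6 CPM (52.9 to 71.2) in 31.5% of members against 17.6 CPM. Fgfr4, Fgfr1, Osmr and Met thus all lay above the other barcodes. The interleukin-6 receptor gene Il6ra was low, at 5.41 CPM (3.09 to 8.79) against 108 CPM, and so was the neurotrophin receptor gene Ntrk2, at 4.40 CPM against 58.8 CPM.

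Ligand genes were mostly low. Of 37 with enough UMIs, 9 were higher and 22 lower (14.0% and 34.0% over all genes). The chemokine genes Ccl2, at 129 CPM (116 to 142) against 1832 CPM, and Ccl7, at 69.3 CPM against 1220 CPM, were far below the myeloid-rich others. The higher ligands included Edn3, an endothelin (34.5 CPM, 28.1 to 41.9, against 0.610 CPM), Igf2, an insulin-like growth factor (47.0 CPM against 2.94 CPM), and Bmp4 (109 CPM, 97.0 to 121, against 12.3 CPM). Bdnf, a neurotrophin, was at 116 CPM (104 to 129) against 9.90 CPM, with UMIs in 20.7% of members. Bdnf reached 31.1 CPM in tenocytes and 30.6 CPM in fibroblasts, the highest of the 6 gated classes.

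Niche and basement membrane genes did not stand out as a list, with 5 higher and 13 lower of 31 (14.0% and 34.0% over all genes). Lama2, a laminin chain, was at 733 CPM (702 to 764) in 93.3% of members against 273 CPM in the others and 981 CPM in fibroblasts. The sarcoglycan gene Sgca was at 12.2 CPM against 0.976 CPM, and Itga7, the laminin receptor of muscle cells, at 40.9 CPM (34.0 to 48.9) against 6.58 CPM. Sparc, an extracellular matrix glycoprotein, was at 824 CPM, against 5561 CPM in fibroblasts. The lowest ratios belonged to Itga6, at 1.69 CPM against 30.3 CPM, and to the collagen gene Col6a3, at 16.9 CPM against 204 CPM.

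Genes of the neuromuscular junction and of denervated muscle were relevant because the nerve had been crushed. Of 21 genes, 10 were higher and 4 lower, beside 14.0% and 34.0% of all genes. The acetylcholine receptor genes Chrnb1, at 57.5 CPM (49.2 to 66.8) against 1.5 CPM, and Chrna1, at 35.2 CPM (28.7 to 42.6) against 1.39 CPM, were higher. Chrna1 UMIs were uneven, with 34.6% of them in 5 members. The receptor kinase gene Musk was at 63.6 CPM (54.8 to 73.3) in 32.5% of members and Rapsn, which clusters the receptors, at 74.7 CPM in 43.6%. Chrnb1, Musk and Rapsn UMIs were spread over many members, with 12.9%, 16% and 9.50% of them in the top 5. Chrng, the fetal receptor subunit, had 3 UMIs, Chrnd 1 and Chrne, the adult subunit, 0, where a limit of 3 UMIs over all members allows up to 1.01 CPM. Ncam1, the adhesion molecule of satellite cells and denervated fibers, was at 418 CPM (395 to 442) in 84.4% of members, at 104 CPM in tenocytes and at 92.3 CPM in Schwann cells. Runx1, a transcription factor induced by denervation, was at 886 CPM in members and 757 CPM in myeloid cells, and Gadd45a, also a denervation gene, at 225 CPM in members and 354 CPM in Schwann cells.

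Immediate early genes, which respond to activation and to tissue digestion alike, were abundant in all classes. Of 18, 2 were higher in members and 4 lower (14.0% and 34.0% over all genes), and they summed to 11536 CPM in members and 12355 CPM in the others. The higher ones were Myc, at 240 CPM (222 to 258) against 69.8 CPM and 220 CPM in fibroblasts, and Maff, at 248 CPM against 110 CPM. Junb at 1849 CPM, Jund at 1815 CPM, Fosb at 1354 CPM and Egr1 at 1199 CPM were the most abundant, all within 2-fold of the others. Dusp1, a phosphatase gene of the same response, was lower, at 253 CPM against 711 CPM.

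Outside these lists, the genes with the highest ratios named further features of the cells. Erfe, which encodes the hormone erythroferrone, was at 66.3 CPM (57.3 to 76.2) in 27.4% of members against 0.502 CPM. Col19a1, a collagen chain, was at 214 CPM (198 to 232) in 54.1% against 2.20 CPM, and had 0 UMIs in Schwann cells. The heparan sulfate sulfotransferase genes Hs6st3, at 627 CPM (599 to 657) in 75.5% of members against 8.41 CPM, and Hs6st2, at 157 CPM against 3.12 CPM, were both among them. Heparan sulfate is the sugar chain that syndecans carry. Cdh13, T-cadherin, was at 712 CPM (682 to 743) in 92.4% against 22.6 CPM, but it was also at 455 CPM in endothelial and 141 CPM in smooth muscle cells. Its UMIs were spread over many cells, with 7.55% of them in the top 5 members. Transcription regulators of muscle were also found, namely Vgll2, a TEAD cofactor (60.2 CPM, 51.7 to 69.7, against 0.847 CPM), Eya1, a transcription coactivator (52.8 CPM against 1.25 CPM, with 39.7% of UMIs in 5 members), Prox1 (93.7 CPM against 2.56 CPM, and 59.5 CPM in endothelial cells) and Msc, musculin (110 CPM against 3.24 CPM). Nppc, the C-type natriuretic peptide gene, was at 151 CPM, but 5 members held 37.7% of its UMIs. At the other end, Mmp12, the macrophage elastase gene, had 0 UMIs in members, which by the same 3-UMI limit allows up to 1.01 CPM, and 39.4 CPM in the others.

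**Figure D3:**
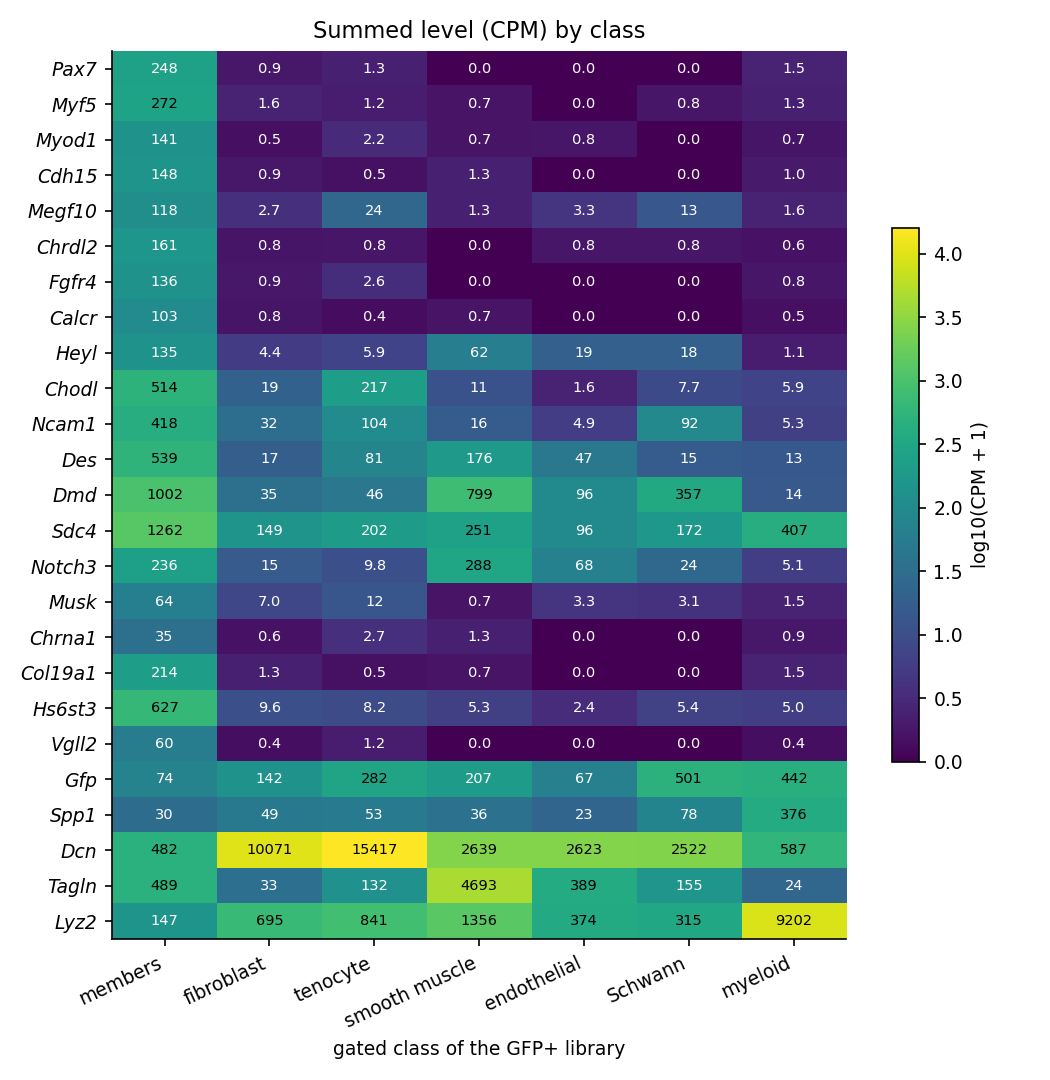
Summed level in CPM (numbers, and color on a log10 scale) of 25 named genes (rows) in members and the 6 gated classes of the GFP+ library (columns). Calcr, at 103 CPM, and Fgfr4, at 136 CPM, were high in members and at most 2.61 CPM in the other columns, while Dmd at 799 CPM and Notch3 at 288 CPM were also high in smooth muscle cells.

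Summed marker RNA of other classes was lower in members than in the other barcodes, except for smooth muscle markers, at 786 CPM against 241 CPM. The 14 myeloid markers, all lower, summed to 598 CPM in members and 23312 CPM in the others, and 2 of them were limited by the rule. Over all genes, 14.0% were higher and 34.0% lower. Lyz2 was at 147 CPM (133 to 161) against 9202 CPM in myeloid cells. The 10 mesenchymal markers summed to 2677 CPM, against 13607 CPM in the others, with 9 lower and 37.2% of their UMIs in 5 members. Pdgfra, the defining receptor gene of fibroblasts, was at 8.79 CPM against 447 CPM in gated fibroblasts. Dpt, dermatopontin, was the exception at 369 CPM (347 to 391) in 79.3% of members, against 239 CPM in the others and 978 CPM in fibroblasts. The 10 Schwann markers summed to 30.8 CPM, with Sox10 at 2 UMIs. The 8 endothelial markers summed to 34.5 CPM, with Emcn and Kdr at 0 UMIs. The 4 hemoglobin genes summed to 12.5 CPM, against 5817 CPM in the others. Of the 8 smooth muscle markers, 2 were higher and 3 lower, beside the same shares over all genes. The higher ones were Tagln, at 489 CPM (464 to 515) in 53.8% of members against 76.3 CPM, and Acta2, at 262 CPM (244 to 282) against 82.8 CPM. The defining marker Myh11 was at 14.9 CPM against 27.3 CPM, with all its UMIs in 3 members. In all, 27 members also passed the gate of another class, 13 of them for fibroblasts, 8 for smooth muscle and 7 for tenocytes. The part of such RNA in the levels above was not tested.

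Myog UMIs were rare, and 3 cells carried nearly all adult fiber RNA. Myog had 8 UMIs in 2 members (0.637%, 0.0772 to 2.28%), and after thinning 0 members held one. The fusion genes Mymk and Mymx and the neonatal myosin gene Myh8 had 0 UMIs, and the embryonic myosin gene Myh3 had 2. A UMI of the differentiation list was found in 296 members (94.3%), but many of its UMIs also lay in other classes. The list summed to 681 CPM in members, 992 CPM in the other barcodes, 1451 CPM in smooth muscle cells and 580 CPM in fibroblasts. Of its 24 genes with enough UMIs, 13 were higher and 4 lower, and of 15 adult fiber genes, 14 were higher and 1 lower (14.0% and 34.0% over all genes). The fiber genes held 8352 UMIs, of which 3 members held 5310, 2421 and 207, together 95%. The next highest members held 33, 21 and 17, 308 members held under 10, and 122 held 0. Without these 3 members, 0 of 15 fiber genes were higher and 14 were lower, and their sum was 143 CPM instead of 2825 CPM. The differentiation list then summed to 573 CPM instead of 681 CPM, with 9 genes higher and 8 lower. The identity list stayed at 24 higher and 2 lower.

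The 3 fiber-rich members held no Pax7 UMI. The first had 29193 UMIs, 18.2% of them from fiber genes, with 7 Myog, 4 Myod1 and 0 Myf5 UMIs. The next had 12322 UMIs, 19.6% from fiber genes, with 1 Myog, 2 Myod1 and 2 Myf5 UMIs. The third had 13354 UMIs, 1.55% from fiber genes, with 5 Myod1 UMIs and neither Myog nor Myf5. All 8 Myog UMIs of the members thus lay in the 2 cells with the most fiber RNA. Acta1, skeletal actin, was at 686 CPM over all members, with 96.2% of its UMIs in the top 5. By contrast, the differentiation-list gene Jsrp1, a protein of the sarcoplasmic reticulum junction, was spread over 41.4% of members, at 76.8 CPM (67.1 to 87.4) against 2.98 CPM, with 17.2% of UMIs in the top 5.

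**Figure D4:**
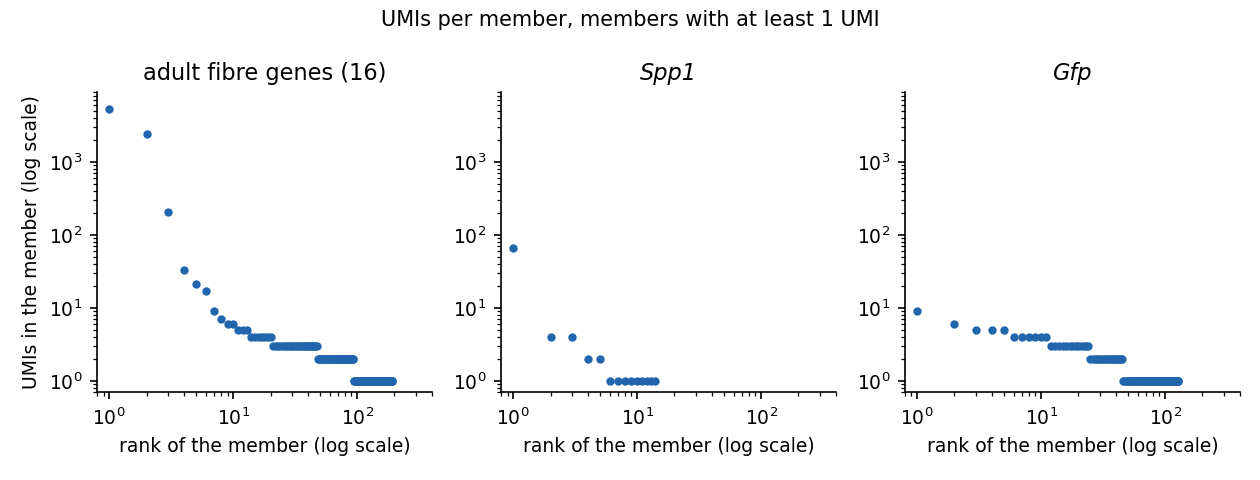
UMIs per member (y axis, log scale) against the rank of the member (x axis, log scale) for the 16 adult fiber genes together, Spp1 and Gfp, for members with at least 1 UMI. In the first panel 3 members lie far above the rest, in the second 1 member with 67 UMIs does, and the Gfp UMIs are spread over 128 members with at most 9 each.

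Cycling cells were counted as those with UMIs of at least 2 of 13 cell cycle genes after thinning. There were 18 among the members, or 5.73% (3.43 to 8.91%), and 25 (7.96%) without thinning. The share was 2.87% after thinning to 1000 UMIs, and also 2.87% over the 209 members with 0 UMIs of Tyrobp and Fcer1g. The thinned share was 3.32% (3.06 to 3.59%) in the other barcodes, 3.04% in myeloid, 2.93% in smooth muscle, 2.04% in tenocyte, 1.78% in fibroblast, 1.29% in endothelial and 0.667% in Schwann cells. The interval of the members overlapped those of the other barcodes, smooth muscle, endothelial and Schwann cells. Across a list of 24 cycle genes, 14 were higher in members and 0 lower, beside 14.0% and 34.0% of all genes, and 5 members held 54.6% of the UMIs. For instance, Top2a was at 70.7 CPM (61.4 to 80.9) against 26.1 CPM, with 79.9% of its UMIs in 5 members. Rrm2, a subunit of ribonucleotide reductase, was at 27.4 CPM against 5.28 CPM. Mki67 was at 36.5 CPM against 38.4 CPM, within 2-fold. The G1 cyclin gene Ccnd1 was at 119 CPM (107 to 132) against 56.7 CPM.

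Myod1, Myf5, Pax7 and Chrdl2 chose the members, so their values in cycling members are a description. A Myod1 UMI was found in 15 of 18 (83.3%, 58.6 to 96.4%), compared with 97 of 296 other members (32.8%, 27.5 to 38.4%), at median depths of 7635 and 8540 UMIs. After thinning these shares were 44.4% and 17.9%. Put the other way, 13.4% of members with Myod1 and 1.49% of those without it were cycling. For Myf5 the unthinned shares were 83.3% and 76.7%. Pax7 was found in 61.1% (35.7 to 82.7%) and 79.7% (74.7 to 84.2%), and its level was 78.0 CPM (48.3 to 119) in cycling and 265 CPM (246 to 285) in other members. Chrdl2 had UMIs in 0 of the 18 cells (0 to 18.5%) and in 51.4% (45.5 to 57.2%) of the others.

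All 24 cycle genes were higher in the cycling members, which is what defined them. Beside a background of 17.2% of 9111 genes higher and 18.4% lower, 11 of 22 quiescence genes were lower and 0 higher, and 14 of 18 immediate early genes were lower and 0 higher. Lower genes were not particular to these lists. Of 24 ligand genes 12 were lower and 3 higher, and of 29 receptor genes 10 were lower and 0 higher. Of 10 mesenchymal markers 7 were lower and 0 higher, and of 25 identity genes 9 were lower and 1 higher. Calcr had 1 UMI in the cycling members, 3.71 CPM (0.0940 to 20.7) against 113 CPM (101 to 127). Chodl was at 111 CPM (75.2 to 159) against 555 CPM (527 to 584), a log2 ratio of -2.32 (-2.89 to -1.80). Notch3 was at 44.6 CPM (23.0 to 77.8) against 255 CPM, and Hes1 at 7.43 CPM against 105 CPM. Sdc4 was at 431 CPM against 1345 CPM. These 5 genes were lower by more than their counting error, but of 12 Notch pathway genes 4 were lower and 1 higher, and without the deepest member 2 lower and 1 higher. Ccnd1 was higher, at 356 CPM (289 to 435) against 94.9 CPM, and so was Chrna1, at 92.8 CPM (60.1 to 137) against 29.4 CPM (23.3 to 36.6). The junction list as a whole did not follow Chrna1, with 1 gene higher and 3 lower of 12. In cycling members 6 of 14 myeloid markers were also higher, with sums of 939 and 564 CPM (7 of 14, and 1323 CPM, without the deepest member), and their part in these differences was not tested. Where Tyrobp and Fcer1g were both at 0 UMIs, 6 of 209 members were cycling, all 6 with Myod1 and 0 with Chrdl2, compared with Myod1 in 35.5% of the 203 others. Without the deepest member, which was cycling, the background was 16.6% higher and 18.1% lower, 8 of 22 quiescence and 11 of 18 immediate early genes were lower, and 0 of either were higher.

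**Figure D5:**
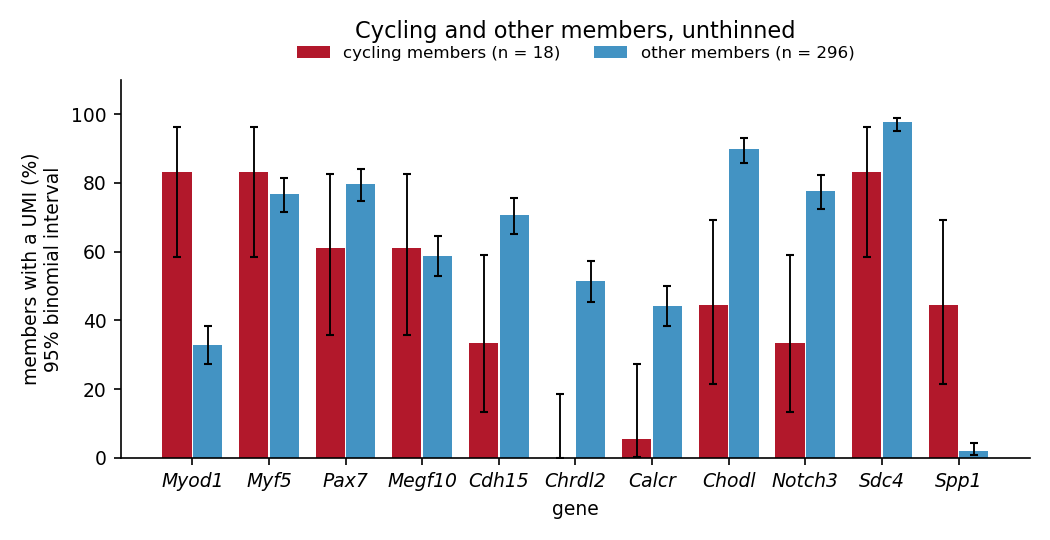
Share of cycling members (red, n = 18) and other members (blue, n = 296) with a UMI of each gene (y axis in percent, unthinned, bars from 0, with exact binomial 95% intervals). Spp1 was more frequent in cycling members, at 44.4% against 2.03%, and Calcr, Chodl and Notch3 were less frequent, while Myod1, Myf5, Pax7, Megf10, Cdh15 and Chrdl2 chose the members and are shown as a description. Among members with 0 UMIs of Tyrobp and Fcer1g, Spp1 was found in 1 of 6 cycling cells and 2 of 203 others.

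Members were also split by Pax7 and Myod1, both of which the rule used, so the split is a description. Pax7 without Myod1 was found in 164 members (52.2%), both in 83 (26.4%), Myod1 without Pax7 in 29 (9.24%) and neither in 38 (12.1%). After thinning these shares were 31.2%, 7.32%, 12.1% and 49.4%, so that the order of the 2 middle groups changed and the split depended on depth. Between the 112 members with Myod1 and the 202 without, 5.40% of 9111 genes were higher and 3.58% lower. These shares were 5.78% and 3.17% among members with at least 5000 UMIs, 4.93% and 6.03% when the split was made after thinning, and 2.98% and 4.21% without the cycling members. With the cycling and the 3 fiber-rich members set aside, 94 members with Myod1 were set against 199 without it. Of 8579 genes, 2.10% were higher and 4.01% lower, and of the quiescence list 0 of 22 were higher or lower. In the same contrast 4 of 11 differentiation genes were higher and 0 lower, and 5 of 23 ligand genes were lower and 0 higher. Of 11 myeloid markers 4 were lower, with sums of 375 and 672 CPM, and their part was not tested. Pax7 levels were 261 CPM (229 to 297) in the first group and 275 CPM (251 to 301) in the second, and 79.8% and 80.9% of them held a Pax7 UMI. Chrna1 was higher with Myod1, at 42.6 CPM (30.2 to 58.5) against 18.4 CPM (12.6 to 25.9), while of 12 junction genes 1 was higher and 1 lower.

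The background shares were larger when the 161 members with Pax7 only were set against the 19 with Myod1 only, with the same cells set aside (15.9% and 14.9% of 7512 genes before that). Of 7005 genes, 16.5% were higher and 7.78% lower with Pax7 only, and 7 of 21 quiescence genes and 4 of 11 Notch genes were higher and 0 of either lower. Calcr was at 148 CPM (128 to 169) and 28.1 CPM (7.66 to 72.0), a log2 ratio of 2.39 (1.02 to 4.28). Hes1 was at 111 CPM and 28.1 CPM, and Notch1 at 72.1 CPM (58.9 to 87.3) and 14.1 CPM (1.70 to 50.8). Genes in the other direction included Ccnd1, at 78.3 CPM (64.5 to 94.2) and 246 CPM (171 to 342), and Chrna1, at 18 CPM and 77.3 CPM. In the junction list 2 of 11 genes were lower with Pax7 only and 0 higher. The second group rested on 19 cells with a median of 6470 UMIs, compared with 8536 in the first, and mesenchymal markers summed to 3042 CPM in it and 1798 CPM in the first. The part of depth and of this RNA was not tested.

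Clustering the members on variable genes without the 6 rule genes gave 6 subclusters at resolution 0.5 and 8 at resolution 1. They are described by the genes that lead them, which are no result. The first, of 17 cells, was led by mitotic genes such as Kif4, Dlgap5 and Bub1 and held 17 of the 18 cycling members. The second held 82 cells and was led by Acta1 and Mylpf, of whose UMIs 98.4% and 98.1% lay in 3 of its cells. The third, with 53 cells and the highest median depth of 10741 UMIs, was led by Rab27b, Tagln, Ass1, S100a4 and Xpnpep1. Tagln was at 1177 CPM there against 303 CPM in the other members. The fourth (23 cells, led by Gm20743, Gm32569, Slpi, Mmp25 and Junos) and the fifth (100 cells, led by 1200007C13Rik, Slco2a1, Csmd1, Vldlr and 1700109H08Rik) had the most Pax7, in 91.3% and 89.0% of their cells, and Myod1 in 21.7% and 28.0%. Their quiescence lists summed to 7025 and 6277 CPM, compared with 4880 and 4467 CPM in all other members. Their immediate early genes were high as well, at 16932 and 14531 CPM, compared with 11187 and 10251 CPM. Genes of other classes also led the fourth, namely Pecam1 (173 CPM against 14.4 CPM) and Cx3cr1 (200 CPM against 17.3 CPM). Of their UMIs there, 67.7% and 63.9% lay in 3 cells. Its myeloid markers summed to 317 CPM, against 616 CPM in the other members. The sixth, of 39 cells, was the shallowest at 4099 UMIs in the median and was led by Ly6c1, Pi16, Itgbl1, Ptgs2 and Fbln5. In it mesenchymal markers summed to 13689 CPM, against 1444 CPM in the other members, and myeloid markers to 3433 CPM, against 281 CPM, while Pax7 was found in 53.8% of its cells and the identity list summed to 4558 CPM against 6744 CPM. Mesenchymal and myeloid RNA was thus highest per UMI in this subcluster, and which of its cells were satellite cells cannot be told from these values.

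The reporter and its source gene were low in these cells, although they had been sorted for GFP. Gfp was at 73.7 CPM (64.3 to 84.2) in members, compared with 501 CPM in Schwann, 442 CPM in myeloid, 282 CPM in tenocyte, 207 CPM in smooth muscle, 142 CPM in fibroblast and 66.8 CPM in endothelial cells. Members thus lay at the low end beside endothelial cells. A Gfp UMI was found in 128 members (40.8%), or 14.7% after thinning, compared with 38.7% of the other barcodes after thinning. Of the 128, 83 held 1 UMI and 5 held 5 or more. The level did not differ beyond counting error between cycling members, at 85.4 CPM (54.1 to 128), and the rest, at 72.6 CPM (62.7 to 83.5), nor between members with Myod1, at 77.4 CPM (60.2 to 98.0), and without it, at 72.4 CPM (60.3 to 86.1), after cycling and fiber-rich members were set aside. S100b had 5 UMIs in 314 members, 1.69 CPM (0.549 to 3.95), compared with 26.9 CPM in Schwann cells. Of its relatives, S100a6 was abundant, at 2236 CPM, and S100a16 was the 1 higher gene of the list, at 199 CPM (183 to 215) against 56.6 CPM.

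Spp1, which encodes osteopontin, an adhesive cytokine, was at 29.8 CPM (23.9 to 36.7) in members, but 1 cell decided this level. Of 88 UMIs in 14 members, 67 lay in the deepest member, and no other held more than 4. Without that member the level was 7.30 CPM, compared with 278 CPM in the other barcodes and 376 CPM in myeloid cells. The deepest member held 81075 UMIs and 7765 genes, while the next deepest held 30395 UMIs. It was cycling, with 19 Myod1, 17 Myf5, 2 Gfp and 0 Tyrobp or Fcer1g UMIs. It was 1 of 3 cycling members that also met the marker rule of another class, here that of tenocytes, with 5 UMIs of its 4 genes, and its part in the values of cycling members was not tested beyond leaving it out. Spp1 UMIs were found in 8 of the 18 cycling members (44.4%, 21.5 to 69.2%) and in 6 of the 296 others (2.03%, 0.747 to 4.36%), and after thinning in 16.7% and 0.676%. Without the deepest cell the shares were 41.2% and 2.03%, and the levels 74.4 CPM (40.7 to 125) and 2.60 CPM (1.05 to 5.37). Among members free of Tyrobp and Fcer1g UMIs, however, Spp1 was found in 1 of 6 cycling cells, the deepest one, and in 2 of 203 others, so the remaining cycling cells with Spp1 all held myeloid UMIs as well. The part of myeloid RNA in their Spp1 was not tested. Of 10 genes for osteopontin and its receptors, 0 were higher in members and 7 lower, beside 14.0% and 34.0% of all genes. Itgb1 at 396 CPM (374 to 419) in 90.4% of members and Cd44 at 257 CPM (239 to 276) in 57.6% were present, while the integrin genes Itga4, at 2.71 CPM against 92.1 CPM, and Itga9, at 5.41 CPM against 57.0 CPM, were the lowest in ratio.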

How the data were processed

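The authors deposited, for the GFP+ library, raw UMI counts per gene and barcode, not normalized. They were made with Cell Ranger (8.0.1 per the file header and 7.1.0 per the submitters' processing notes, which also name mm10), and 1 column of counts was used. Depth is 170648616 UMIs over 36400 barcodes and 32287 features. A second GFP feature held 2 UMIs in all and was not used.

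Gating and counting ran under Python 3.11.15 with pandas 2.3.3, numpy 2.4.6 and scipy 1.17.1. The members and gene lists were chosen with earlier results of these data known. Called means at least 2-fold with at least 20 UMIs over both groups. CPM carry exact Poisson, shares Clopper-Pearson and log2 ratios exact conditional 95% intervals. With 1 library there is no replicate and no p-value. Barcodes were thinned to 2000 UMIs with fixed seeds. Members were clustered with scanpy 1.11.5 and python-igraph 0.11.9. Doublets were kept. As an alternative, barcodes with the highest Scrublet scores were dropped, at a rate of 0.4% per 1000 barcodes (7.43% of barcodes and 13 members). The calculation was tested on simulated data.

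Genes named were, per list, up to 4 with the highest CPM and up to 4 with the highest and 2 with the lowest ratio, outside lists 20 and 10 with at least 200 UMIs (the highest also in at least 20% of members), the rule genes, Gfp, Spp1 and Myog, and up to 5 per subcluster or contrast. Other genes named (such as Musk, Rapsn, Notch1, Mymk, Mymx, Myh3, Myh8, Chrng, Chrnd, Chrne, Sox10 and Myh11) were chosen after their values were seen. Some genes the rule selects are not reported here.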

Additional observations from a re-analysis of the deposited data

How the results depend on the processing

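No paired analysis was possible because each fraction is 1 library and only 1 was analysed. The log2 ratio of the summed identity list was 2.95 (2.93 to 2.97), and it became 3.01 with at least 5000 UMIs, 2.98 with under 5% mitochondrial UMIs, 2.98 with at least 5 UMIs over at least 3 rule genes, 3.01 without members that pass another gate and, in an alternative chosen after seeing the data, 2.98 without the deepest member. The number of members fell from 314 to 209 when Tyrobp and Fcer1g had to be at 0 UMIs. The cycling share was then 2.87%, and 2.87% also after thinning to 1000 UMIs. At least 4-fold instead of 2-fold left 862 of 2679 higher genes. Spp1 was 7.03 CPM without members that pass another gate and 7.30 CPM without the deepest member. It was 3.16 CPM without the 5 members with the most Spp1 UMIs. Under all 10 alternatives Gfp stayed between 64.9 and 79.7 CPM and Spp1 between 3.16 and 33.7 CPM. The ratio of Spp1 to the other barcodes was not recalculated. The identity ratio did not turn its direction. The adult fiber list did, from 14 higher and 1 lower gene to 0 higher and 14 lower without the 3 fiber-rich members, and between members with and without Myod1 from 13 higher and 0 lower to 1 higher and 12 lower when the split was made after thinning. Depth limits the rare states: with 18 cycling cells and 19 cells with Myod1 only, small differences were not detectable.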
